A study of Mus musculus with 6 samples.

Results

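The gene described here is *Tcf7l2* (ENSMUSG00000024985), 1 of 32285 mouse genes counted, followed in neurons and in the oligodendrocyte lineage of mouse brain tissue with Foxr2 overexpression. It was chosen by its own pattern of levels over cell classes in these data, so its UMIs and peaks are given as a description and were not tested. The tissue came from C57BL/6J mice whose ganglionic eminence progenitors had been electroporated *in utero* at embryonic stage with plasmids for Foxr2 and for a luciferase (Akaluc) with GFP, both integrated by the piggyBac transposase. All animals therefore carried Foxr2 overexpression in the progeny of the electroporated cells, and the p53LOF group also received a Cas9 plasmid with a guide against p53. Unelectroporated host cells are part of each sample, and the age of the animals at collection was not used here. Single nuclei were profiled by 10x Multiome, which reads RNA and open chromatin (ATAC) of the same nucleus, in 3 libraries. The labels call all of the tissue brain tumor, but the study describes the tissue of Foxr2 alone as lesions without proliferation. RNA and peak counts were analysed for 1 library of Foxr2 with p53LOF and 1 library of Foxr2 alone, and the second Foxr2 alone library entered only through its list of peaks.

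*Tcf7l2* encodes a transcription factor of the TCF/LEF family, which binds DNA through an HMG box. The factor recruits β-catenin when the Wnt pathway is active and Groucho/TLE corepressors when it is not. In the brain it is known from postmitotic neurons of the thalamus, habenula and midbrain, from astrocytes, and from oligodendrocyte precursors that have just begun to differentiate. OPC stands for oligodendrocyte precursor cell, COP for the committed precursor that follows it and NFOL for the newly formed oligodendrocyte after that.

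In the mm10 annotation *Tcf7l2* lay on the plus strand of chromosome 19, at chr19:55741820-55933654, a span of 191.8 kb. Of its 22 annotated transcripts 16 began at the first promoter, and 6 began at internal starts, the first of them 151.5 kb downstream. Distances are given from the annotated start. In the locus, defined as the gene and 100 kb on each side, 34 of the 112924 peaks of the Foxr2 p53LOF library and 29 of the 135201 peaks of the Foxr2 alone library were called. The second Foxr2 alone library had 26 of 99112 peaks there. The sequences shown are the first promoter, from RefSeq (GRCm38.p6, the mm10 assembly), and the central 300 bases of 4 peaks, picked after their values were seen because their openness differed clearly between the cell classes described here, read from the mm10 genome on the plus strand. Capitals mark matches on either strand to letters used by 3 families of factors, CTTTGAA or CTTTGAT for TCF/LEF, ACAAAG or ACAATG for SOX, and CAGCTG or CAGATG for E-box binding factors. The 4 peaks are peak 12, in an intron 46.8 kb from the start, peak 19, in an intron 110.0 kb from the start, and peaks 27 and 29, which lay downstream of the gene 199.1 kb and 211.6 kb from the start.
First promoter, chr19:55741560-55741809: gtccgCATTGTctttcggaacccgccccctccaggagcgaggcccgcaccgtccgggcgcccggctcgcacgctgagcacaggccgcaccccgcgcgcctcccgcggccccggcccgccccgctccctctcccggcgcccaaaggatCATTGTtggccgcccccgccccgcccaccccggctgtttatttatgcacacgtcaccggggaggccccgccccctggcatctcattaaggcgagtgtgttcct
Peak 12, chr19:55788429-55788728: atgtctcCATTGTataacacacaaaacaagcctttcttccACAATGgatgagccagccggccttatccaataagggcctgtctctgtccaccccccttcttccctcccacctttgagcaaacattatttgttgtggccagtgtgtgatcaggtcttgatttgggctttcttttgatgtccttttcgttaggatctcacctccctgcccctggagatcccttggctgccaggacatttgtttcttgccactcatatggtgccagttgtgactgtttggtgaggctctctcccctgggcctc
Peak 19, chr19:55851678-55851977: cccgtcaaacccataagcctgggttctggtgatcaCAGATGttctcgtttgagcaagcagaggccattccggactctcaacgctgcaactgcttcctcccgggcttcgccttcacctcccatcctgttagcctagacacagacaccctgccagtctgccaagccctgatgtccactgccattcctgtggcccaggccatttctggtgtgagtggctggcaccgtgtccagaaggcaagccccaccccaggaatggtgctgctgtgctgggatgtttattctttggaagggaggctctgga
Peak 27, chr19:55940750-55941049: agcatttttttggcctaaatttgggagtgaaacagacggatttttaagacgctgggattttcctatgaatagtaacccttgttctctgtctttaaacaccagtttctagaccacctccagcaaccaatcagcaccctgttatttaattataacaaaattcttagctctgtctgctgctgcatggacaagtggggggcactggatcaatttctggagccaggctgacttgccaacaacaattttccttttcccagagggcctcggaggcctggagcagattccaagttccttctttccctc
Peak 29, chr19:55953298-55953597: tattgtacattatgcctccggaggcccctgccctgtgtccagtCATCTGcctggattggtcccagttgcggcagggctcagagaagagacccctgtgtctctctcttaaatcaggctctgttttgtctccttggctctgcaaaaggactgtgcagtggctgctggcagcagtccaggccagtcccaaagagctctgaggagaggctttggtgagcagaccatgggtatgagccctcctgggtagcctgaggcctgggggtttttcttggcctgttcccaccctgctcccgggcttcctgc
The first promoter was 72.8% G and C with 30 CG pairs, against a median of 6 CG pairs and 52.4% G and C over all 32851 promoters of this length. Its 2 matches were to the SOX letters, which 25.2% of promoters held. Peak 12 also held 2 SOX matches, whereas peaks 19 and 29 held 1 E-box match each. SOX letters stood in 38.1% and E-box letters in 43.3% of the 112883 peak centres examined, so a match in 1 window is common. Letters for TCF/LEF itself were found in 2 of the 34 locus peaks, against 9.86% of all peak centres. These matches are descriptions of sequence and not binding sites.

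After quality filters and removal of doublets, 8359 of 10379 barcodes were kept in the Foxr2 p53LOF library and 8316 of 10096 in the Foxr2 alone library, with medians of 5527 and 3637 UMIs per nucleus. A UMI is a counted RNA molecule, and levels (CPM) are UMIs of the gene per 1000000 UMIs in the summed nuclei of a class. Intervals are exact 95% intervals for counting error only, since each genotype had 1 library with counts and nuclei are not replicates. Classes were clusters named from fixed markers, and all listed genes, *Tcf7l2* included, were kept out of the clustering. The 8 neuron markers summed to 21500 CPM in the neuron-like nuclei of Foxr2 p53LOF and the 8 oligodendrocyte markers to 19536 CPM in its oligodendrocyte-like nuclei. These lists also gave the names, so the sums describe the classes and do not test the names. The precursor-like tumor nuclei were 94 OPC-like and 1152 COP-like nuclei. The COP-like name rested on a near tie, because COP, NFOL and oligodendrocyte markers all stood above the other clusters. In COP-like nuclei the COP markers summed to 2982 CPM, NFOL markers to 3631, oligodendrocyte markers to 5029 and OPC markers to 1624.5. *Bmp4*, *Enpp6* and *Gdnf* were among the leading genes of the class. Precursor-like is therefore used as a label, and the sums do not settle a stage between committed precursor and newly formed oligodendrocyte. ATAC counts on the electroporated vector were seen in 27.0% (24.5 to 29.7%) of COP-like nuclei, 2.13% of OPC-like, 0.79% of oligodendrocyte-like and 0.66% of neuron-like nuclei, and also in 30.1% (27.5 to 32.8%) of astrocyte-like and 2.28% of immune-like nuclei. The tumor label thus fitted the COP-like nuclei by vector counts, though not them alone, while 2 of 94 OPC-like nuclei carried one, a share like that of immune-like nuclei. The Foxr2 alone library had 2 COP-like nuclei and 0 vector peaks, so the precursor-like class is described in Foxr2 p53LOF only. The libraries shared 140 barcodes, of which 94 were kept, and leaving these out moved no *Tcf7l2* value beyond its interval.

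*Tcf7l2* UMIs were counted in every glial class of at least 50 nuclei and in neurons, though the gene was nearly absent from the neurons of Foxr2 alone. COP-like nuclei of Foxr2 p53LOF had 3031 UMIs in 1152 nuclei, or 289 CPM (279 to 300). Oligodendrocyte-like nuclei there had 314 UMIs in 1527 nuclei, or 77.0 CPM (68.7 to 86.0). Slc17a6 neurons, the glutamatergic neurons that load vesicles with VGLUT2, had 2686 UMIs in 1544 nuclei, or 155 CPM (149 to 161). The precursor-like class was highest and the oligodendrocytes lowest, with the neurons between them. These levels depended on how clusters were named, since COP-like nuclei had 183 CPM and Gad neurons 191 CPM with minimums of 1000 genes and fragments, and Slc17a6 neurons had 11.3 CPM with doublets kept, when the main neuron cluster had no name. Astrocyte-like nuclei stood at 247 CPM (237 to 256), Gad neurons, which make GABA, at 175 CPM (166 to 185), immune-like nuclei at 165 CPM (156 to 175) and OPC-like nuclei at 160 CPM (120 to 210). In this order only 2 steps between neighbours had an interval that left out 0. These were the step from 300 unnamed nuclei at 230 CPM down to Gad neurons, 0.39 on the log2 scale, and the step from Slc17a6 neurons down to oligodendrocytes, 1.01 (0.84 to 1.18). COP-like, mural and fibroblast-like, astrocyte-like and unnamed nuclei formed an upper run in which no neighbouring step could be separated by counting error. COP-like nuclei were above astrocyte-like nuclei by 0.23 (0.15 to 0.31). Without 1 small sub-cluster, described below and picked for the highest *Tcf7l2* level, COP-like nuclei had 218 CPM (209 to 227). A fall was fixed by that choice. No sub-cluster was left out of the astrocyte-like nuclei, so this value does not rank the classes.

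**Figure D1:**
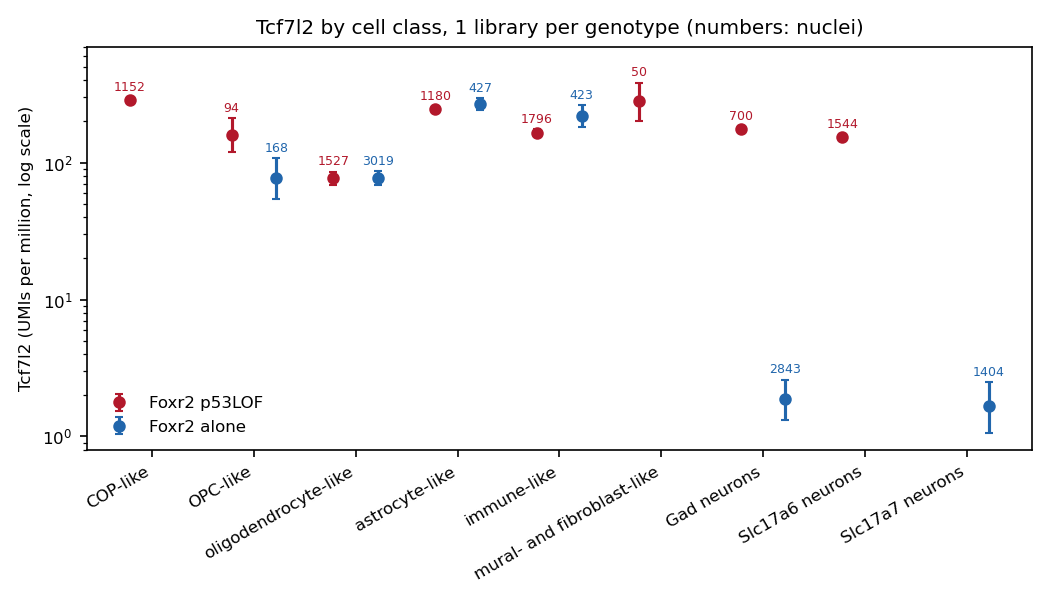
*Tcf7l2* level (CPM, log axis) by cell class in the Foxr2 p53LOF library (red) and the Foxr2 alone library (blue), with exact 95% counting intervals and the number of nuclei above each point. Oligodendrocyte-like nuclei coincide at 77.0 and 77.2, whereas Gad neurons stand at 175 in Foxr2 p53LOF and 1.87 in Foxr2 alone.

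In the Foxr2 alone library astrocyte-like nuclei came first, above immune-like nuclei by 0.29 (-0.003 to 0.59), which included 0, and OPC-like and oligodendrocyte-like nuclei were level. Astrocyte-like nuclei had 269 CPM (244 to 297; 427 nuclei), immune-like nuclei 220 CPM (183 to 263; 423 nuclei), OPC-like nuclei 77.5 CPM (53.9 to 108; 168 nuclei) and oligodendrocyte-like nuclei 77.2 CPM (68.7 to 86.4; 3019 nuclei). OPC-like and oligodendrocyte-like nuclei of this library did not differ beyond counting error, with a log2 ratio of 0.01 (-0.54 to 0.51). Neuron-like nuclei were far below all of these, with 59 UMIs in 4247 nuclei, or 1.78 CPM (1.36 to 2.30).

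Counted per nucleus, 48.2% of COP-like nuclei, 38.9% of Slc17a6 neurons and 16.6% of oligodendrocyte-like nuclei of Foxr2 p53LOF had at least 1 *Tcf7l2* UMI, at median depths of 7457, 9949 and 2455 UMIs. The neurons of Foxr2 alone, in which the gene was nearly absent, gave 1.22% at a median of 7304 UMIs. Within Foxr2 p53LOF the low Slc17a6 sub-cluster 2 gave 4.53% at a median of 7520 UMIs. After each nucleus was thinned to 1000 UMIs the shares were 19.1%, 12.3% and 7.07%, against 0.12% in the neurons of Foxr2 alone. Tumor transcripts were also counted in classes with few vector counts. In the p53LOF library Foxr2 stood at 90.4 CPM among COP-like nuclei, 28.0 CPM among oligodendrocytes, 32.3 CPM among immune-like nuclei and 12.0 CPM among neurons, with GFP at 724, 190.0, 242 and 76.4 CPM in the same order. The part of carried-over RNA in the *Tcf7l2* level of these classes was not tested. The order of the 3 classes was thus the same after thinning, for which 77 COP-like and 14 oligodendrocyte-like nuclei were too shallow. The UMIs were spread unevenly over nuclei. Of the COP-like nuclei 597 had none, 168 had 1 and 87 had 10 or more, up to 47, whereas no oligodendrocyte-like nucleus of either library had more than 4.

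Within the oligodendrocyte lineage of Foxr2 p53LOF the precursor-like nuclei had 3083 UMIs in 1246 nuclei, or 285 CPM, against 77.0 CPM in oligodendrocytes. The log2 ratio was 1.89 (1.72 to 2.06), a 3.71-fold difference. Vector counts were seen in 27.0% of COP-like and 0.79% of oligodendrocyte-like nuclei, so stage and tumor state cannot be told apart in this ratio. *Vti1a*, a neighbouring protein-coding gene for a vesicle SNARE, had 314 and 320 CPM in the same nuclei. The difference at *Tcf7l2* was therefore not shared by *Vti1a*. Of the 3 neighbouring genes listed, *Vti1a* among them, 2 reached 10 CPM, with 0 higher and 0 lower at 2-fold. Their median log2 ratio of 0.40, like that of all genes, is the midpoint of only 2 genes. The second gene was thus higher in the precursor-like nuclei than *Vti1a* was, though below 2-fold. The COP-like and OPC-like parts differed by 0.85 (0.46 to 1.27) on the log2 scale. OPC-like nuclei of Foxr2 p53LOF were above oligodendrocytes of the same library by 1.06 (0.61 to 1.49) and above OPC-like nuclei of Foxr2 alone by 1.05 (0.40 to 1.71), on 52 and 35 UMIs.

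Clustering the lineage again within the library set apart a small group of nuclei with a high level. Sub-cluster 8 held 72 nuclei, of which 71 were COP-like, with 855 *Tcf7l2* UMIs, or 1705 CPM (1592 to 1823). It held 6.16% of the COP-like nuclei and 28.1% of their *Tcf7l2* UMIs. A UMI was seen in 70 of its 72 nuclei, with a median of 8 per nucleus, and in 77.8% after thinning. Its markers were those of newly formed oligodendrocytes, with *Enpp6*, a choline phosphodiesterase, at 1358 CPM, the endoplasmic calcium channel gene *Itpr2* at 2989 CPM and *Bcas1*, a marker of early myelinating cells, at 4568 CPM. The myelin surface gene *Mog* stood at 199 CPM there against 912 to 1459 CPM in the 4 oligodendrocyte sub-clusters. Sub-cluster 8 is called NFOL-like here. Its vector share was 12.5% (5.88 to 22.4%), between the 27.5% of the main precursor sub-cluster and the 0.79% of oligodendrocyte-like nuclei. Its Foxr2 level was 23.9 CPM (12.4 to 41.8), against 84.1 CPM in the main precursor sub-cluster and 28.0 CPM in oligodendrocyte-like nuclei. Its GFP level of 187 CPM was near the 190 CPM of oligodendrocyte-like nuclei. How many of its nuclei are tumor nuclei was not tested.

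The main precursor sub-cluster, sub-cluster 0 with 717 nuclei, had 224 CPM (214 to 235) of *Tcf7l2* and 377 CPM of *Enpp6*, and its leading genes included *Pde11a*, *Lmx1a* and *Gdnf*. Sub-cluster 7 was led by the mitotic genes *Neil3* and *Kif11* with *Mki67* at 505 CPM, and had 156 CPM of *Tcf7l2* (134 to 180; 86 nuclei). Sub-cluster 4 was led by the heat shock genes *Hspa1a* and *Hspa1b* at a median of 1496 UMIs per nucleus, and had 134 CPM (108 to 165; 265 nuclei). The cycling and the heat shock sub-clusters thus stood below the main one. Sub-cluster 5 had 385 CPM (325 to 452), and its nuclei were of different kinds, since its 94 OPC-like nuclei had 160 CPM and its 10 COP-like nuclei 1703 CPM. The 4 oligodendrocyte sub-clusters of Foxr2 p53LOF ranged from 58.3 to 85.8 CPM and the 3 of Foxr2 alone with at least 50 nuclei from 50.4 to 80.7 CPM. Without the NFOL-like sub-cluster the COP-like nuclei had 218 CPM (209 to 227), and the ratio of precursor-like nuclei to oligodendrocytes was 1.497 on the log2 scale. The sub-cluster left out was picked by its *Tcf7l2* level, so a fall of both values was fixed by that choice.

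**Figure D2:**
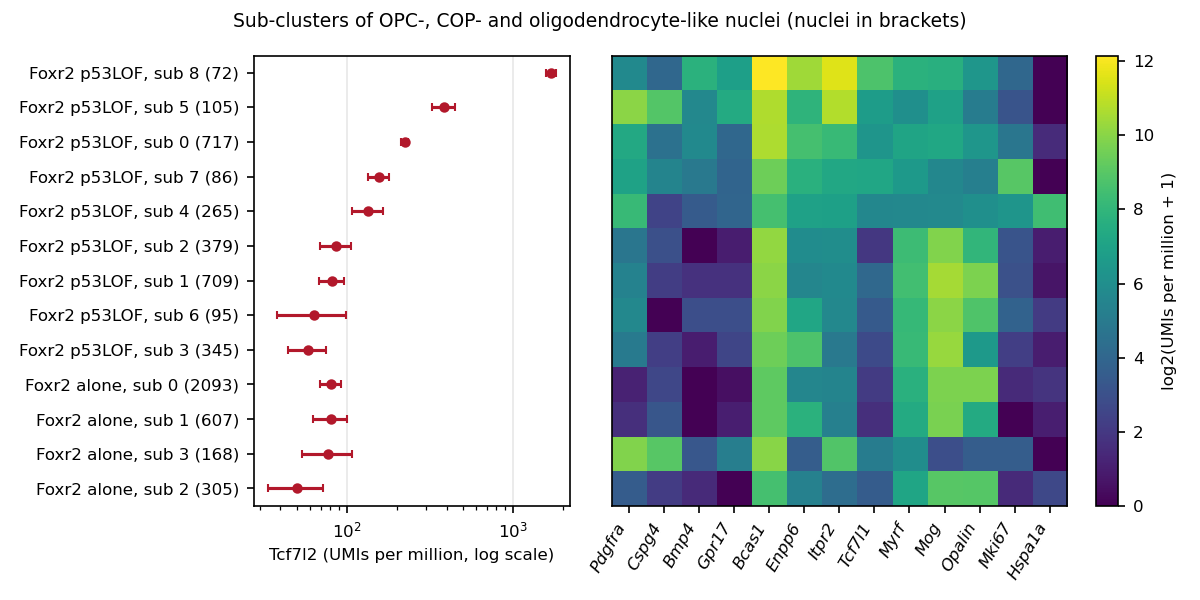
*Tcf7l2* level with exact 95% counting intervals (left, CPM, log axis) and levels of stage genes (right, color) in the sub-clusters of OPC-, COP- and oligodendrocyte-like nuclei of both libraries. Sub-cluster 8 of Foxr2 p53LOF, with the brightest *Enpp6* and *Bcas1*, stands at 1705, and the *Mog*-bright sub-clusters lie between 50.4 and 85.8.

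Nuclei were also split by genes of stage and of the tumor. COP-like nuclei with an *Enpp6* UMI had 338 CPM of *Tcf7l2* and those without 109 CPM, a log2 ratio of 1.63 (1.44 to 1.83), but the former were deeper, with medians of 10309 and 3300 UMIs. In oligodendrocyte-like nuclei the same split went the other way, with 57.8 and 84.5 CPM at medians of 2911 and 2321 UMIs. COP-like nuclei with an ATAC count on the vector had 244 CPM and those without 310 CPM, a log2 ratio of -0.35 (-0.46 to -0.23). Nuclei with a UMI of *Mki67* or *Top2a*, genes of dividing cells, had 248 CPM against 320 CPM. In these splits too the nuclei with a count were deeper, with medians of 9599 and 6913 UMIs for the vector and 10765 and 6493 UMIs for the cell cycle genes. The *Tcf7l2* level was therefore not higher in the COP-like nuclei with vector counts or cell cycle transcripts. Sub-clusters differed in vector share too, with 48.8% in sub-cluster 7 and 12.5% in sub-cluster 8, and their part in these splits was not tested. In astrocyte-like nuclei of Foxr2 p53LOF the vector split went the other way. Those with a count had 272 CPM and those without 234 CPM, a log2 ratio of 0.22 (0.11 to 0.34).

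Oligodendrocyte-like nuclei were set side by side between the libraries. The 77.0 CPM of Foxr2 p53LOF and 77.2 CPM of Foxr2 alone gave a log2 ratio of -0.00 (-0.24 to 0.23), and *Vti1a* differed by 0.18 (0.06 to 0.29). The nuclei lay in separate clusters, cluster 3 with 1526 nuclei from the p53LOF library against 3 from the other, and cluster 0 with 1 against 3016. With doublets kept, the levels were 98.8 and 61.1 CPM and the difference was 0.69 (0.49 to 0.90), so the equality depended on doublet removal. RNA of neuronal genes in these nuclei differed between the libraries. The cortical transporter gene *Slc17a7* stood at 40.5 CPM in Foxr2 alone and 0.2 CPM in Foxr2 p53LOF, while *Slc17a6* stood at 0.5 and 13.0 CPM. In Foxr2 alone the neuron markers summed to 2270 CPM in oligodendrocyte sub-cluster 2 (305 nuclei) and to 559 and 515 CPM in sub-clusters 0 and 1. The part of this neuronal RNA in the *Tcf7l2* values was not tested. Astrocyte-like nuclei compared in the same way, Foxr2 p53LOF first, gave -0.13 (-0.28 to 0.03) and immune-like nuclei -0.42 (-0.68 to -0.14). These classes too lay in separate clusters, astrocyte-like nuclei in cluster 5 (1174 and 2 nuclei) and cluster 11 (6 and 425), immune-like nuclei in clusters 4 (1297 and 16), 8 (496 and 0) and 12 (3 and 407). Cluster 5 was led by *Egfr* and cluster 11 by *Slc1a3*, and 30.1% of the astrocyte-like nuclei of Foxr2 p53LOF had vector counts. The astrocyte-like classes are therefore not shown to be the same kind of cell in both libraries.

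Among the neurons of Foxr2 p53LOF the transmitter groups had similar *Tcf7l2* levels in sum. Slc17a6 neurons had 155 CPM and the other 716 neurons 170 CPM (161 to 180), a log2 ratio of -0.14 (-0.23 to -0.04), or 0.911-fold. The sign of this small ratio depended on how neurons were assigned, and it was 0.16 when nuclei were split by their own UMIs of transmitter genes. It was 1.70 without Gad sub-cluster 0 and -0.73 without Slc17a6 sub-cluster 1. Both groups were mixtures of neurons with very different levels. Slc17a6 sub-cluster 6 had 453 CPM (417 to 492; 109 nuclei) and a *Tcf7l2* UMI in 94.5% of nuclei. Slc17a6 sub-cluster 2 had 15 UMIs in 243 nuclei, or 7.66 CPM (4.29 to 12.6), although its *Slc17a6* level of 555 CPM was the highest of the sub-clusters with at least 50 nuclei. The range within Slc17a6 neurons was thus far wider than the difference between transmitter groups.

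The sub-clusters are described from the highest *Tcf7l2* level down, with the regional genes that marked them. Sub-cluster 6 was led by *Synpo2* and also by *Prkcd*, a kinase gene of thalamic relay neurons, at 49.1 CPM, and held *Lhx9* at 72.9 CPM, *Prox1* at 79.2 CPM and *Lef1* at 84.8 CPM, which are thalamic genes too. Sub-cluster 1 (495 nuclei; 282 CPM, 267 to 297) was led by the AP-2 factor genes *Tfap2d* and *Tfap2b*, with *Lhx9* at 50.7 CPM. Sub-cluster 5 (151 nuclei; 276 CPM, 251 to 303) was a mixture, led by *Pomc* and *Hdc* with the serotonin genes *Tph2* and *Slc6a4*. Gad sub-cluster 0 (524 nuclei; 218 CPM, 206 to 231) was led by *Mecom*, *Gata3* and *Tal1*, the last 2 being factors of midbrain GABA neurons. These 4 were the high sub-clusters, and both transmitters were among them.

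The remaining sub-clusters were lower. Gad sub-cluster 9, with the dorsal midbrain gene *Pax7* at 107 CPM, had 160 CPM (127 to 198; 52 nuclei), and Slc17a6 sub-cluster 7 had 63.4 CPM (51.2 to 77.6; 91 nuclei). Sub-cluster 4, the dopamine neurons with the transporter gene *Slc6a3* at 779 CPM and *Th* at 112 CPM, had 29.8 CPM (23.6 to 37.1; 160 nuclei). Sub-cluster 3, with the floor plate gene *Lmx1a* at 120 CPM, had 22.9 CPM (16.6 to 30.7; 182 nuclei). The lowest were sub-cluster 8 with 9.94 CPM, sub-cluster 2 with the hypothalamic genes *Nkx2-1* at 64.3 CPM and *Sim1* at 204 CPM, and Gad sub-cluster 10, led by *Pax5* and *Pax8*, with 6.06 CPM. The 6 sub-clusters of fewer than 50 nuclei had 0 to 45.4 CPM. Neighbours from sub-cluster 4 downward did not differ beyond their counting intervals, and neither did sub-clusters 1 and 5. The other 5 steps, from sub-cluster 6 to sub-cluster 4, had intervals that left out 0, of which the widest was 1.33 (0.89 to 1.77) from Gad sub-cluster 9 to sub-cluster 7.

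**Figure D3:**
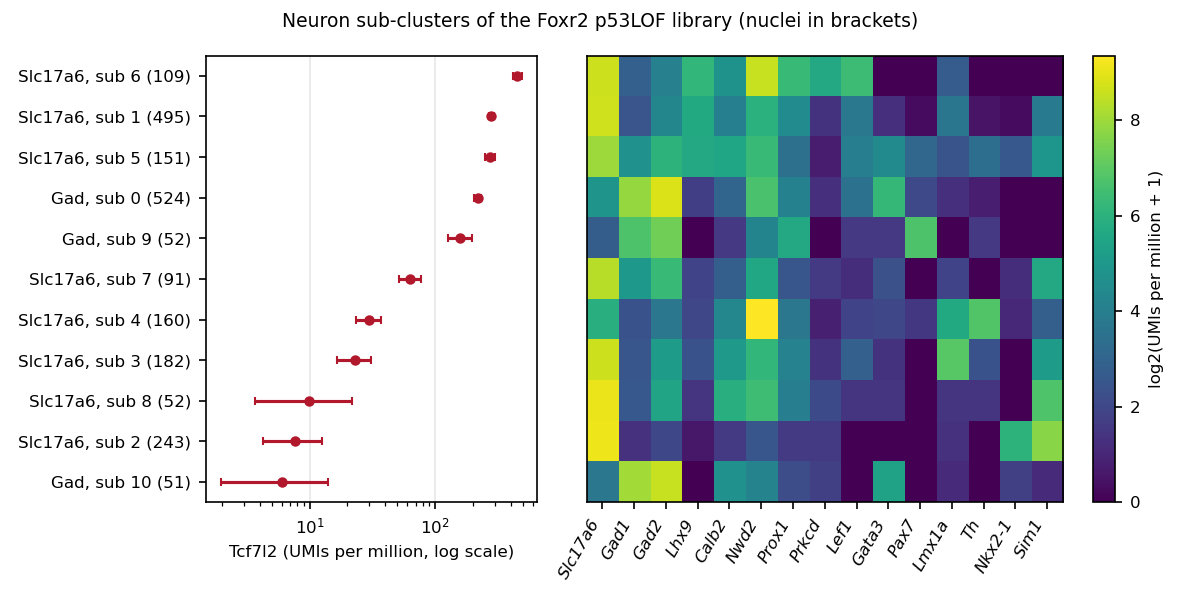
*Tcf7l2* level with exact 95% counting intervals (left, CPM, log axis) and levels of transmitter and regional genes (right, color) in the neuron sub-clusters of the Foxr2 p53LOF library with at least 50 nuclei. The highest, Slc17a6 sub-cluster 6 at 453, has the brightest *Prkcd* and *Lef1*, and Slc17a6 sub-cluster 2 at 7.66 has the brightest *Slc17a6*, *Nkx2-1* and *Sim1*.

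Neurons of Foxr2 alone were at the opposite end. Their 2843 Gad neurons had 36 UMIs, or 1.87 CPM (1.31 to 2.59), and their 1404 Slc17a7 neurons, the VGLUT1 type of the cortex, had 23 UMIs, or 1.66 CPM (1.05 to 2.49). Neuron-like nuclei of Foxr2 p53LOF were 89.5-fold higher, a log2 ratio of 6.48 (6.11 to 6.88), while *Vti1a* differed by -0.18. The neurons of the libraries were of different brain regions by their genes. The striatal gene *Ppp1r1b* stood at 176 CPM in neurons of Foxr2 alone and 0.2 CPM in those of Foxr2 p53LOF, and *Slc17a6* at 6.0 and 252 CPM. Of the 12 telencephalic neuron genes listed, 0 reached 10 CPM in either neuron group of Foxr2 p53LOF. The 16 Slc17a7 neurons of Foxr2 p53LOF had 0 *Tcf7l2* UMIs in 234273 UMIs, with an exact interval up to 15.7 CPM. Genotype, library and region of the neurons cannot be told apart here, and no Slc17a6 sub-cluster existed in Foxr2 alone to compare.

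The other 3 genes of the family were followed in the same groups, each against itself only, since genes of different length are not comparable in these units. *Tcf7l1*, a mostly repressing TCF, had 105 CPM in COP-like nuclei, 15.4 CPM in OPC-like and 8.8 CPM in oligodendrocyte-like nuclei of Foxr2 p53LOF, and reached 431 CPM in the NFOL-like sub-cluster. It was thus highest in the same sub-cluster as *Tcf7l2*. In neurons it was nearly absent, with 2.1 CPM in Slc17a6 neurons. *Lef1*, the member with the strongest activating role, was highest among the neurons in Slc17a6 sub-cluster 6, at 84.8 CPM, and stood at 0.5 CPM in oligodendrocytes and 3.8 CPM in COP-like nuclei. *Tcf7* was at 16.7 CPM in astrocyte-like nuclei and at or below 7.1 CPM in the other classes named here. *Ppnr*, a noncoding RNA in an intron of *Tcf7l2* on the same strand, had 25.9 CPM in the NFOL-like sub-cluster and 4.0 CPM in sub-cluster 0, and its reads cannot be separated from unspliced *Tcf7l2* RNA.

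Wnt pathway genes were counted from a fixed list of 63 genes besides *Tcf7l2*. A gene was counted when it had at least 10 CPM in 1 of the groups compared and differed at least 2-fold on CPM + 1, with no test. Between precursor-like nuclei and oligodendrocytes, 31 genes reached 10 CPM, of which 11 were higher in the precursor-like nuclei and 3 lower, against 25.9% higher and 9.65% lower of all 10283 genes. The median log2 ratio was 0.59 for the list and 0.40 for all genes. The higher ones were *Ctnnb1*, which encodes β-catenin, at 103 and 44.4 CPM, the corepressors *Tle1*, *Tle4* and *Ctbp2*, the receptor genes *Fzd3* and *Lrp5*, the ligand genes *Wnt7b* (44.8 and 4.4 CPM) and *Rspo3*, *Tcf7l1*, and the growth genes *Ccnd1* (205 and 40.0 CPM) and *Myc*. The lower ones were the ligand *Wnt3* and the feedback inhibitors *Nkd1* (11.8 and 33.8 CPM) and *Rnf43* (6.4 and 47.3 CPM). Among the target genes both directions occurred. *Axin2*, a feedback gene of active Wnt signaling, stood at 5.5 CPM in COP-like, 5.9 CPM in oligodendrocyte-like and 27.8 CPM in OPC-like nuclei.

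Between Slc17a6 neurons and the other neurons of Foxr2 p53LOF, 31 Wnt genes reached 10 CPM, of which 0 were higher and 1 was lower, *Rspo2* at 3.7 and 10.2 CPM. Of all 9505 genes 1.66% were higher and 0.757% lower. Of 7 thalamus and habenula genes 4 were higher in Slc17a6 neurons, with *Lhx9*, *Shox2* and *Calb2* foremost, and of 9 midbrain, pretectum and subthalamus genes 5 were higher, *Th* among them, and 4 lower, with *Gata3* and *Meis2* foremost. Of 2 hypothalamus genes *Sim1* was higher. In oligodendrocytes, 27 Wnt genes reached 10 CPM in 1 library, with 1 higher and 6 lower in Foxr2 p53LOF, against 12.7% higher and 19.7% lower of 9709 genes. The higher one was *Ccnd1*, a gene of cell cycle entry, at 40.0 and 4.1 CPM. The lower ones were the corepressor gene *Tle5* (37.0 and 136 CPM), the receptor gene *Fzd7* (4.7 and 11.7 CPM), the ligand genes *Wnt3* (20.1 and 65.5 CPM) and *Wnt5b* (6.4 and 14.3 CPM), *Dkk3* (2.5 and 11.0 CPM) and the target gene *Apcdd1* (2.5 and 24.96 CPM). Thus the oligodendrocytes, level in *Tcf7l2* once doublets were removed, differed in many other genes between the libraries.

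Regulators of the oligodendrocyte lineage were set beside *Tcf7l2* in the same way. All 15 reached 10 CPM between precursor-like nuclei and oligodendrocytes, with 3 higher and 3 lower, beside 25.9% and 9.65% of all genes, so the list did not stand out by its higher members. The higher were *Nkx2-2* (132 and 38.7 CPM), a factor of early differentiation, *Bmp4* (55.3 and 2.0 CPM) and *Id2*, and the lower were *Myrf* (127 and 324 CPM), the factor that drives myelin genes, *Zfp536* and *Olig1*. *Bmp4* was also one of the markers that named the COP-like cluster, so its place among the higher genes was not independent of the name. In the NFOL-like sub-cluster *Nkx2-2* stood at 205 CPM, *Zfp488*, a factor of differentiation, at 138 CPM, *Bmp4* at 215 CPM and *Myrf* at 213 CPM. All 4 were above the main precursor sub-cluster, which had 132, 59.9, 53.3 and 136 CPM.

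Openness of the locus was measured as peak CPM, the cut sites in its peaks per 1000000 cut sites in all peaks, within each library because peaks were called separately. COP-like nuclei had 251 (240 to 263), oligodendrocyte-like nuclei 195 (181 to 209) and Slc17a6 neurons 139 (130 to 148). The log2 ratio of COP-like nuclei to oligodendrocytes was 0.37 (0.24 to 0.49), far smaller than the ratio in RNA. With peaks of the gene body only, it was absent, at 163 and 161 peak CPM. OPC-like nuclei were the most open class at 394 (326 to 472), although their RNA level was 160 CPM, and the NFOL-like sub-cluster had 383 (319 to 455). Within Slc17a6 neurons openness went with RNA, from 259 (213 to 313) in sub-cluster 6 to 39.8 (28.3 to 54.5) in sub-cluster 2. In Foxr2 alone the locus stood at 313 in astrocyte-like, 251 in OPC-like, 175 in oligodendrocyte-like and 67.6 in neuron-like nuclei. Over 18 groups of Foxr2 p53LOF, which share 1 library, Pearson's r of log2 RNA and locus openness was 0.90, given as a description.

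**Figure D4:**
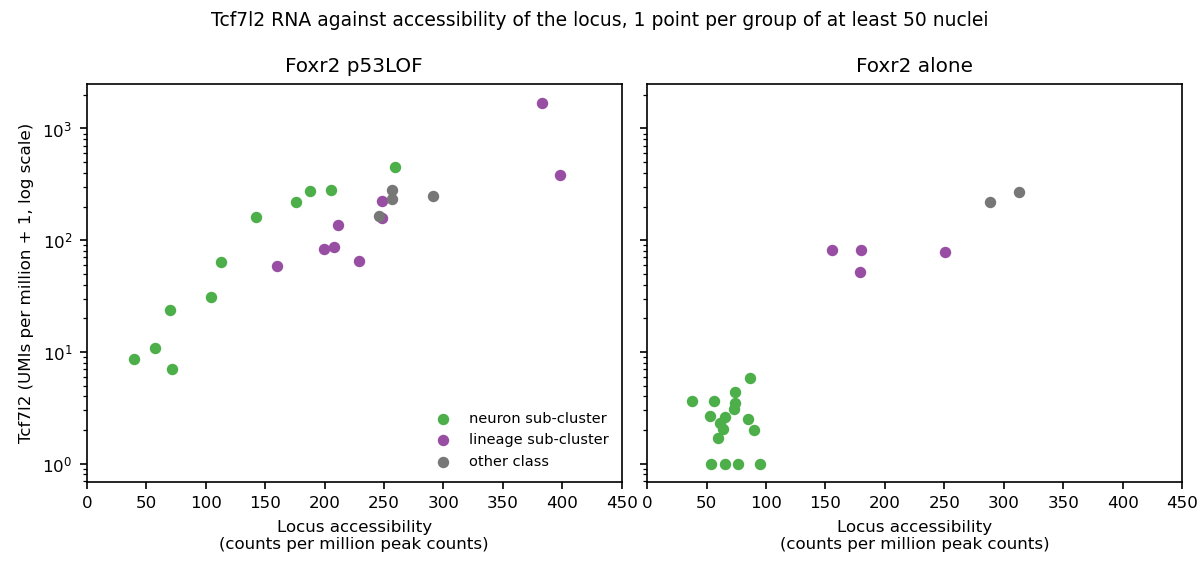
*Tcf7l2* RNA (CPM plus 1, log axis) against openness of the locus (peak CPM) in groups of at least 50 nuclei, one panel per library. In Foxr2 p53LOF the neuron sub-clusters run from 39.8 to 259 on the openness axis and the NFOL-like sub-cluster, highest in RNA, is at 383, while in Foxr2 alone all neuron sub-clusters sit at the lower left.

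Single peaks separated the classes more than their sum did, and intervals for peaks were not adjusted for the number of peaks. The first promoter, peak 7, had 34.6 peak CPM in COP-like nuclei and 39.6 in oligodendrocytes, a log2 ratio of -0.19 (-0.49 to 0.10), so its openness did not follow the RNA between these classes. In Slc17a6 neurons the promoter had 12.5 peak CPM, with 30.8 in sub-cluster 6 and 2.6 in sub-cluster 2. In neurons of Foxr2 alone it had 3.2 and in oligodendrocytes of that library 52.9. The promoter was therefore open in oligodendrocyte-like nuclei of both libraries and nearly closed in the neurons with little *Tcf7l2* RNA.

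Of the 34 peaks 17 were higher and 4 lower in COP-like nuclei than in oligodendrocytes with intervals that left out 0, against 35.0% higher and 15.7% lower of all 112885 peaks with counts. The clearest of the lower ones was peak 12, one of those shown above with SOX letters, which had 19.5 peak CPM (16.4 to 23.1) in COP-like nuclei, 36.9 (31.2 to 43.3) in oligodendrocytes and 7.0 in Slc17a6 neurons. In Foxr2 alone the matching peak had 39.7 in oligodendrocytes, 15.0 in OPC-like nuclei and 1.0 in neurons. Peak 29 showed the reverse order, with 62.0 (37.1 to 97.4) in OPC-like nuclei, 43.4 (24.0 to 72.1) in the NFOL-like sub-cluster, 12.5 (10.0 to 15.4) in COP-like nuclei and 1.7 (0.69 to 3.56) in oligodendrocytes. Its match in Foxr2 alone had 32.8 in OPC-like nuclei and 0.8 in oligodendrocytes. These peaks thus marked opposite ends of the lineage in both libraries.

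Peaks 19 and 27 were both open in neurons, and peak 27 also in OPC-like and NFOL-like nuclei. Peak 19 had 13.8 peak CPM (11.1 to 16.9) in Slc17a6 neurons and 13.6 in Gad neurons, against 7.5 in COP-like nuclei and 3.3 in oligodendrocytes, though astrocyte-like nuclei had 12.5, and it had 8.2 in sub-cluster 2, in which the RNA was nearly absent. Peak 27 had 33.2 (18.1 to 55.7) in sub-cluster 6, 13.1 in sub-cluster 1 and 4.1 in sub-cluster 2, as well as 41.9 in OPC-like and 26.9 (12.3 to 51.1) in NFOL-like nuclei, but 0.6 in oligodendrocytes. In Foxr2 alone the matching peak had 11.2 in neurons, although their RNA level was 1.78 CPM. Between Slc17a6 and other neurons of Foxr2 p53LOF the interval left out 0 at 1 of 34 peaks, which was lower, against 3.58% higher and 3.68% lower of all peaks with counts. Of the peaks of Foxr2 p53LOF 20 of 34 (58.8%) overlapped a peak of Foxr2 alone, which is 20 of 29 (69.0%) of the latter, and 18 of 34 (52.9%) overlapped a peak of the second Foxr2 alone library. Over all peaks the shares were 63.5%, 53.1% and 62.2%.

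**Figure D5:**
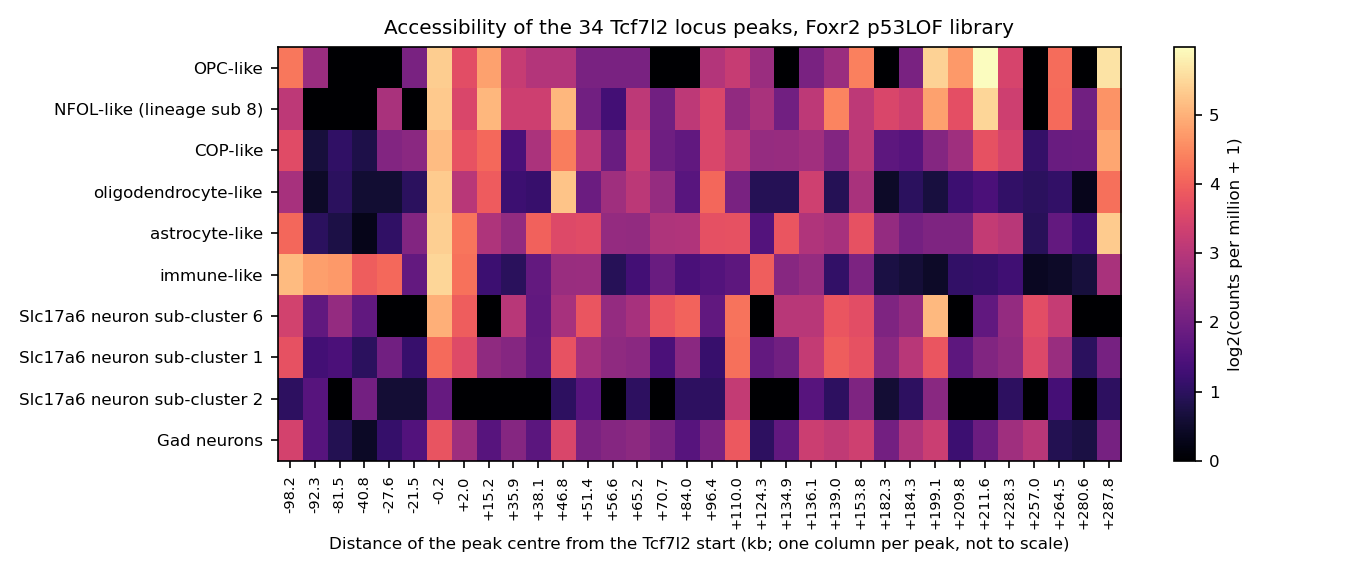
Openness (log2 of peak CPM plus 1, color) of the 34 locus peaks of the Foxr2 p53LOF library, ordered by distance of the peak centre from the *Tcf7l2* start in kb, in 10 groups of nuclei. The promoter column at -0.2 kb is dimmest in Slc17a6 sub-cluster 2, +46.8 kb is brightest in oligodendrocyte-like nuclei (36.9 peak CPM) and +211.6 kb in OPC-like nuclei (62.0).

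Because both readouts come from the same nucleus, nuclei with and without an ATAC count at a peak were compared in RNA. Slc17a6 neurons with a count were higher at 18 of the 19 peaks with enough counts, so the promoter was not particular among them. In Foxr2 p53LOF astrocyte-like nuclei were higher at 12 of 26 peaks and oligodendrocyte-like nuclei at 0 of 12. Immune-like nuclei were higher at 4 and lower at 1 of 14. No share over peaks outside the locus was computed, so these counts cannot be read as a trait of the locus. Slc17a6 neurons with a count at the promoter had 323 CPM and those without 144 CPM, a log2 ratio of 1.16, at medians of 12330 and 9854 UMIs. Gad neurons had 394 and 162 CPM. In COP-like nuclei the same split gave 257 and 299 CPM. Over 24 peaks these nuclei were higher at 9, lower at 8 and not separable at 7. At the 6 of them downstream of the gene, COP-like nuclei with a count were higher at 4, lower at 1 and not separable at 1. At the other 18 they were higher at 5, lower at 7 and not separable at 6. The higher ones downstream were 674 and 278 CPM for peak 27 (28 nuclei with a count), 443 and 282 CPM at 209.9 kb, 461 and 271 CPM for peak 29 (82 nuclei) and 761 and 277 CPM at 264.5 kb (20 nuclei). The lower one downstream was 235 and 294 CPM at 228.3 kb, and the peak at 287.8 kb had 273 and 293 CPM. A nucleus without a count may still be open at that site, and the depth of the nuclei differed in each split. The classes were also mixtures of sub-clusters that differed in RNA and in openness, and the part of this in the splits was not tested.

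The genes whose levels were most like those of *Tcf7l2* were sought over 39 classes and sub-clusters of both libraries by Pearson's r of log2(CPM + 1). The search covered 16020 genes with at least 10 CPM in 1 of these groups. The most alike were *Ifitm3* (r = 0.857), *Psmb8* (0.848), *H2-K1* (0.846), *Fyco1* (0.838) and *Vim* (0.833), and all of these groups share 2 libraries. Of the groups 17 were neuron sub-clusters of Foxr2 alone, in which *Tcf7l2* was nearly absent. Over 11 classes without neurons the genes were others, *Idh2* (0.945), *Adgrl2* (0.944), *Serhl* (0.930), *Hdac4* (0.927) and *Il1r1* (0.922). Over the 11 neuron sub-clusters of Foxr2 p53LOF alone they were *Gm33906* (0.944), *4930593C16Rik* (0.939), *Slc35f4* (0.920), *Map3k15* (0.907) and *Sarm1* (0.878), among 11247 genes with at least 10 CPM. Most were low, with at most 28.5 CPM for *Gm33906* and *Map3k15*, 13.5 CPM for *4930593C16Rik* and 19.5 CPM for *Sarm1*. *Slc35f4* ran from 90.9 to 254 CPM. The list also depended on the minimum. At 1 CPM, among 19851 genes, *Ppnr* (0.940) ranked 2 and *Gm14597* (0.923) ranked 4, while *Map3k15* ranked 8 and *Sarm1* ranked 9. Among family members over the same sub-clusters *Lef1* had r = 0.83 and *Tcf7l1* r = -0.63.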

How the data were processed

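Nuclei of brain tissue were profiled by 10x Multiome. The authors made the deposited counts with Cell Ranger ARC 2.0.0 (per the submitters' processing notes; mm10 with added vector sequences), as whole-number UMI counts per gene, introns included, and cut-site counts per peak, with peaks and nuclei called separately in each library. No normalization had been applied.

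Nuclei with at least 400 genes and 400 fragments and below upper limits taken from the study's supplementary quality control values were kept. Doublets were removed with Scrublet (scanpy 1.11.5), and nuclei were clustered by Leiden without any listed gene. A cluster was named from its best marker list where that led the lists of other kinds of cell by 0.5 on the log2 scale. Among glial lists within 1 of the best, the one with most markers among the 10 leading genes gave the name, as for the COP-like cluster. Both rules were set after the data were seen. Counts were summed per class and divided by class totals. Exact Poisson and Clopper-Pearson 95% intervals cover counting error only, and peak intervals used counts divided by 2 because a fragment has 2 cut sites. With 1 counted library per genotype no test was made. Named genes were the TCF/LEF family, up to 3 members per list and direction by ratio (all of them for the Wnt lists), the 5 leading genes of a sub-cluster and the 5 genes with the highest Pearson's r with *Tcf7l2*; other stage, region and leading genes were chosen after their values were seen, and some genes are not reported here. The gene, lists and peaks were chosen with earlier results of these data known. Ratios and intervals were tested on simulated Poisson counts of class sums. That is the model the intervals assume, so uneven counts between nuclei were not covered. RNA and peak counts of the second Foxr2 alone library were not analysed here.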

Additional observations from a re-analysis of the deposited data

Results flagged for a closer look

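The ratio of Gad neurons to oligodendrocyte-like nuclei had opposite signs in the libraries. The log2 ratio of *Tcf7l2* levels was 1.19 (1.01 to 1.37) in Foxr2 p53LOF and -5.36 (-5.90 to -4.86) in Foxr2 alone, with 1 library each, and the difference between them was not tested. The oligodendrocyte levels behind both ratios were 77.0 and 77.2 CPM, so the opposite signs came from the Gad neurons, at 175 and 1.87 CPM. The Gad neurons of Foxr2 alone had the striatal gene *Ppp1r1b* at 279 CPM, and region and genotype cannot be told apart.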

How the results depend on the processing

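No paired analysis was possible because each genotype had 1 library with counts. Leaving out a replicate was not possible for the same reason. Of 119 alternatives 59 stayed within the interval of the reported value, 57 moved beyond it and 3 turned the sign, all 3 for Slc17a6 neurons over other neurons. That log2 ratio was 0.13 at Leiden resolution 1.0, 0.16 with nuclei split by their own transmitter UMIs and 1.70 without Gad sub-cluster 0, and -0.31 with minimums of 1000 genes and fragments, -0.28 with limits on peak counts as deposited, -0.73 without Slc17a6 sub-cluster 1 and -0.37 without sub-cluster 6. Alternatives that leave out a sub-cluster or the shared barcodes, the margin of 0.25 and the kept class names were chosen after seeing the data. The cause of these changes was not tested, other than that some leave out nuclei.

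Slc17a6 neurons had 149 CPM with minimums of 1000, 149 CPM with limits on peak counts as deposited, 11.3 CPM with doublets kept (290 nuclei, since the main neuron cluster then had no name), 171 CPM with doublets kept and a naming margin of 0.25, 166 CPM at resolution 1.0, 168 CPM as a mean over nuclei, 182 CPM with median-of-ratios factors, 103 CPM without sub-cluster 1 and 132 CPM without sub-cluster 6. Gad neurons had, in the same settings where they moved, 191, 187, 192, 155, 190.2 and 204 CPM, and 53.3 CPM without sub-cluster 0. COP-like nuclei had 183 CPM with minimums of 1000 (215 nuclei, since their main cluster was then named NFOL), 321 CPM with limits as deposited, 313 CPM with those limits and class names kept, 270 CPM with doublets kept at either margin, 279 CPM as a mean over nuclei, 263 CPM with median-of-ratios factors and 218 CPM without the NFOL-like sub-cluster. Precursor-like nuclei over oligodendrocytes gave 1.24, 2.07, 1.44, 1.54 and 1.497 under minimums of 1000, limits as deposited, doublets kept at either margin, median-of-ratios factors and without the NFOL-like sub-cluster, so the sign held in all alternatives run.

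With doublets kept at either margin, the oligodendrocyte levels were 98.8 CPM with p53LOF and 61.1 CPM without it, which is 0.69 apart on the log2 scale, so the reported equality of 77.0 and 77.2 CPM depended on doublet removal. The former was 89.4 CPM with median-of-ratios factors. Neurons of Foxr2 alone had 2.63, 2.72, 2.33 and 2.31 CPM with minimums of 1000, limits as deposited, doublets kept, and doublets kept with the margin of 0.25. Locus openness with peaks of the gene body only was 96.0 in Slc17a6 neurons, 163 in COP-like nuclei, 161 and 152 in oligodendrocytes of Foxr2 p53LOF and Foxr2 alone, and 35.5 in neurons of Foxr2 alone, so COP-like nuclei and oligodendrocytes of Foxr2 p53LOF then no longer differed beyond their intervals. Counting each nucleus once gave 152, 264 and 72.0 for Slc17a6 neurons, COP-like nuclei and neurons of Foxr2 alone. Peaks of at least 200 counts gave 118, 229, 161 and 45.8 for Slc17a6 neurons, COP-like nuclei, oligodendrocytes of Foxr2 alone and its neurons.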
